A study of Mus musculus with 4 samples.

Results

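The genes described here are 6 genes whose RNA or protein product marks pluripotent cells or helps to maintain them: Alpl, Nr5a2, Utf1, Lin28a, Dppa2 and Gbx2. They were taken as every probe annotated to exactly 1 of these genes and read on all 4 arrays, counting the older names Akp2 for Alpl and Lin28 for Lin28a. That gave 6 probes, 1 for each gene, of 9480 probes on the array, of which 6566 have 1 gene and cover 6025 genes. The genes were chosen by their measured log2 ratios to wild type in both mutants, so these ratios are given as a description with no test.

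The study compared 2 mutant lines of mouse embryonic stem (ES) cells with wild-type ES cells on 2-colour cDNA microarrays. The fosBd/d line is homozygous for an allele from which only ΔFosB, the truncated form of the AP-1 subunit FosB, is made. The fosB-null line is named as lacking fosB, and wild-type cells (+/+) shared each array with a mutant. Cells of all 3 genotypes were grown without feeder cells, and the series title states 72 h of serum starvation followed by 4 h of serum. Each mutant has 2 arrays with the dyes exchanged, replicate 1 with the mutant in Cy3 and replicate 2 with the mutant in Cy5. The labels do not give the age or strain of the cells, how many clones or cultures they came from, or whether the arrays of a swap used separate RNA extracts, so the spread between arrays may be technical. Pou5f1, Nanog and Sox2, the defining ES cell markers, and Fosb itself are not analysed here, and a ratio shows no absolute level, so neither the cell type nor the fosB alleles could be checked.

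ES cells are kept undifferentiated by a network of transcription factors that activate each other, fed by the cytokine LIF through STAT3 and by Wnt signalling. Genes of this network differ in when they are lost: in the mouse, some mark the naive state and are switched off early as cells leave it, and others persist into the later epiblast. Of the genes described here, Gbx2 and Nr5a2 encode transcription factors, Utf1 and Dppa2 encode chromatin-associated proteins, Lin28a encodes an RNA-binding protein, and Alpl encodes a cell-surface enzyme.

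RefSeq promoter sequences (build GRCm38.p6), running from 250 bases before to 50 bases after the annotated start, were found for 5 of the 6 genes and gave 7 promoters. Shown are those of 2 genes on the negative side of fosBd/d and 2 on the positive side, so that the groups can be set beside each other, with any searched motif in capitals. The Gbx2 window is chr1:89931127-89931426 and the Nr5a2 window is chr1:136953581-136953880, the second of its 2 annotated starts. The Lin28a window is chr4:134018767-134019066, and all 3 lie on the minus strand. The Utf1 window is chr7:139943606-139943905 on the plus strand.
Gbx2: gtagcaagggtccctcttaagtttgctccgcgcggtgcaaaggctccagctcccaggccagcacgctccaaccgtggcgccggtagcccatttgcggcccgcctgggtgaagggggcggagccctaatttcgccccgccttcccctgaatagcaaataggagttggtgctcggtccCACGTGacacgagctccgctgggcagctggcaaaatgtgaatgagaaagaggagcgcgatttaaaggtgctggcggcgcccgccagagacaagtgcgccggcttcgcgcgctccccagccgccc
Nr5a2: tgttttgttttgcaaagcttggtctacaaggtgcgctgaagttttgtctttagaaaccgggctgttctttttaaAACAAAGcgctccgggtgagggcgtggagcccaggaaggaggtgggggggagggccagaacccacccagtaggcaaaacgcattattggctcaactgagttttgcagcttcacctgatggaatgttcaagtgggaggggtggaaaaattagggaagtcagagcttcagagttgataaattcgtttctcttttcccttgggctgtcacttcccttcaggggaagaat
Lin28a: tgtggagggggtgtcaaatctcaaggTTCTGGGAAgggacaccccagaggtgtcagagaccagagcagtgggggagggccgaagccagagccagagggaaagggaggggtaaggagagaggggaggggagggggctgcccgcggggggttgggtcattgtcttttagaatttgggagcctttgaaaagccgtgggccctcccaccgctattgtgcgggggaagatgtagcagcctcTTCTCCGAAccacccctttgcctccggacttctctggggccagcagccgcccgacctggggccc
Utf1: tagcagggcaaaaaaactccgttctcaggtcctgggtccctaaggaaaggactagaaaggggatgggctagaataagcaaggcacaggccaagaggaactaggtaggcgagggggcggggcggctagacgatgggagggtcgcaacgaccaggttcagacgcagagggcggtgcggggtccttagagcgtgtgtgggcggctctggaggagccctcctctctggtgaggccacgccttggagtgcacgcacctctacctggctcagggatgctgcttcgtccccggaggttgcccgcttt

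Motifs were searched as exact letters on both strands. The AP-1 motif, which Fos and Jun dimers bind, was searched as TGANTCA with any base at N, a broader pattern than their site. It was found in 0 of the 7 promoters and in 7.81% of all 32851 promoters in the table. The related CRE motif TGACGTCA (1.79% of all promoters), the octamer ATGCAAAT of Oct factors (1.74%) and the NR5A half-site AAGGTCA (4.72%) also had no match. The Lin28a promoter held the STAT pattern TTCNNNGAA at 2 places, with first bases at -224 and -14 from the annotated start, as TTCTGGGAA and TTCTCCGAA. That pattern is in 8.30% of all promoters. The Gbx2 promoter held the E-box CACGTG (7.15%) and the Nr5a2 promoter shown held AACAAAG (5.85%), a sequence that SOX and TCF/LEF factors both can bind. The Utf1 promoter, the other Nr5a2 promoter and both Alpl promoters had none of the 7 motifs. GC content was 62.0% for Utf1, 63.3% for Lin28a, 64.7% for Gbx2 and 49.0% for the Nr5a2 promoter shown, against a median of 52.7% over all promoters. A match is only a run of letters, and its absence from this window says nothing about a factor.

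Values below are log2 ratios, taken from deposited log10 ratios, and the sign needs care. Exact zeros carried a minus sign on fosBd/d replicate 1 and fosB-null replicate 2, and no sign on the other 2 arrays, which is what multiplication by -1 leaves. The arrays of replicate 1, both with the mutant in Cy3, correlated at r = -0.46 across the 9480 probes, and those of replicate 2 at r = -0.37. Once these signs were turned back, the correlation was above 0 for each of the 6 array pairs, from 0.12 to 0.46. If Cy5 over Cy3 is meant, as the dye names would give, positive values stand for more RNA in fosBd/d than in wild type but for less RNA in fosB-null than in wild type. If all arrays were instead mutant over wild type, fosBd/d reads the same and fosB-null reads the other way. That reading takes the deposited signs as they stand, so arrays that share a dye orientation correlate below 0. The parts of the signal that follow the dye, given further on, then correlate at -0.61 between the mutants. Another reading, from labels that give Cy3 the word red and Cy5 the word green, would turn fosBd/d and leave fosB-null as mutant over wild type. The direction of fosBd/d is therefore called likely, and fosB-null is given by its sign, with the turned value where both mutants are compared.

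In fosBd/d cells the 6 genes did not lie on 1 side. Gbx2, Nr5a2 and Alpl were negative on both arrays, likely lower in the mutant, by 3.10-fold, 1.77-fold and 1.72-fold. Utf1 and Lin28a were positive on both arrays, likely higher by 1.36-fold and 1.31-fold. Dppa2 had a mean close to 0 and opposite signs on its 2 arrays. In limma, the linear model used over all probes, 0 of 9480 probes passed an adjusted p of 0.05 in fosBd/d (0%), while 1503 had an unadjusted p under 0.05 (15.9%). That number was 351 to 973 when any 1 array was left out, which also drops the dye term.

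**Figure D1:**
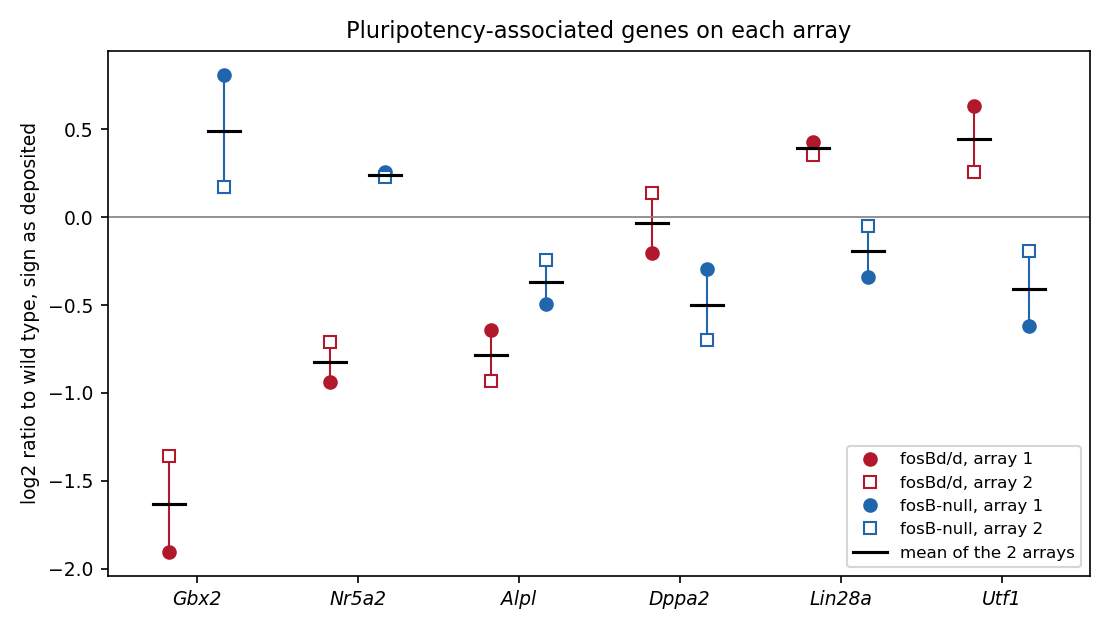
Log2 ratio to wild type (vertical axis, sign as deposited) of each gene on each of the 2 fosBd/d and 2 fosB-null arrays, with filled circles for array 1, open squares for array 2 and black bars for their mean. Gbx2 stands lowest in fosBd/d, at -1.90 and -1.36, and is positive on both fosB-null arrays.

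Gbx2 encodes a homeobox transcription factor that acts downstream of LIF and STAT3 in mouse ES cells and helps to hold them in the naive state. Its log2 ratio was -1.90 and -1.36 on the fosBd/d arrays, a mean of -1.63 ± 0.39 (SD, n = 2). Among all probes, 0.675% had a lower mean in fosBd/d. It was the only one of the 6 genes at least 2-fold from wild type on both fosBd/d arrays, where 0.338% of all probes were that far on the negative side and 1.24% on the positive side. In fosB-null it stood at 0.81 and 0.17, a mean of 0.49 ± 0.45, so the arrays had 1 sign but very different sizes.

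Nr5a2 encodes an orphan nuclear receptor (LRH-1) that sustains expression of the pluripotency factor Oct4 in the mouse epiblast. Its ratio was -0.94 and -0.71 in fosBd/d, a mean of -0.82 ± 0.16 (SD, n = 2). The fosB-null arrays gave 0.26 and 0.23, a mean of 0.24 ± 0.02, the smallest spread of the 6 genes. The fosBd/d arrays were thus negative and the fosB-null arrays positive, as deposited. With the dyes exchanged between the 2 arrays, a small spread also means a small dye part, and does not measure the error between cultures.

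Alpl encodes tissue-nonspecific alkaline phosphatase, the enzyme whose staining is widely used to recognise undifferentiated ES cell colonies. It stood at -0.64 and -0.93 in fosBd/d, a mean of -0.79 ± 0.21 (SD, n = 2). It was negative in fosB-null as well, at -0.49 and -0.24, a mean of -0.37 ± 0.18. Alpl was the only one of the 6 genes negative on all 4 arrays as deposited. With the fosB-null sign turned, its fosB-null mean would be 0.37. Gbx2 (-0.49) and Nr5a2 (-0.24) would then be the genes negative on all 4 arrays. In fosBd/d, 5.81% of all probes had a lower mean than Alpl, and 5.23% had a lower mean than Nr5a2. Gbx2, Nr5a2 and Alpl were each at least 1.5-fold negative on both fosBd/d arrays, as were 1.38% of all probes. On the positive side 0 of the 6 were that far, against 3.31% of all probes. None of the 6 genes reached 1.5-fold on both fosB-null arrays, where 0.580% of all probes did so on the positive side and 0.506% on the negative side.

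Utf1 encodes a chromatin-associated factor that Oct4 and Sox2 activate and that is silenced early in ES cell differentiation. Its ratio was 0.63 and 0.26 in fosBd/d, a mean of 0.45 ± 0.27 (SD, n = 2), and 12.3% of all probes had a higher mean. In fosB-null it was -0.62 and -0.19, a mean of -0.41 ± 0.30. On both swaps the array with the mutant in Cy3 had the larger size.

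Lin28a encodes an RNA-binding protein that blocks the maturation of let-7 microRNAs, which otherwise favour differentiation. It stood at 0.43 and 0.36 in fosBd/d, a mean of 0.39 ± 0.05 (SD, n = 2). Its fosB-null values were -0.34 and -0.05, a mean of -0.19 ± 0.21, so the second array was close to 0. In fosBd/d, 14.7% of all probes had a higher mean than Lin28a.

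Dppa2 encodes a SAP-domain protein that works with Dppa4 on chromatin in early embryonic cells. Its fosBd/d arrays gave -0.21 and 0.14, a mean of -0.03 ± 0.24 (SD, n = 2). The fosB-null arrays gave -0.30 and -0.70, a mean of -0.50 ± 0.28, the lowest of the 6 genes in that mutant. In fosB-null, 2.93% of all probes had a lower mean than Dppa2, and 4.74% a lower mean than Utf1. The same fit called 0 of 9480 probes for fosB-null (0%), with 578 at an unadjusted p under 0.05 (6.10%) and 46 to 179 when any 1 array was left out.

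Ordered by their fosBd/d ratio, the genes ran Gbx2, Nr5a2, Alpl, Dppa2, Lin28a and Utf1. Nr5a2 and Alpl had overlapping arrays and cannot be ordered, and neither can Lin28a and Utf1. By their fosB-null ratio as deposited, the order was Dppa2, Utf1, Alpl, Lin28a, Nr5a2 and Gbx2, with overlapping arrays between each neighbouring pair except Lin28a and Nr5a2. In fosBd/d, both arrays were negative for 3 of the 6 genes and positive for 2, where 22% of all probes were negative and 21.7% positive. In fosB-null, 4 were negative and 2 positive, where 19% of all probes were negative and 18.6% positive. The choice of genes used these values, so nothing is read from the counts.

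**Figure D2:**
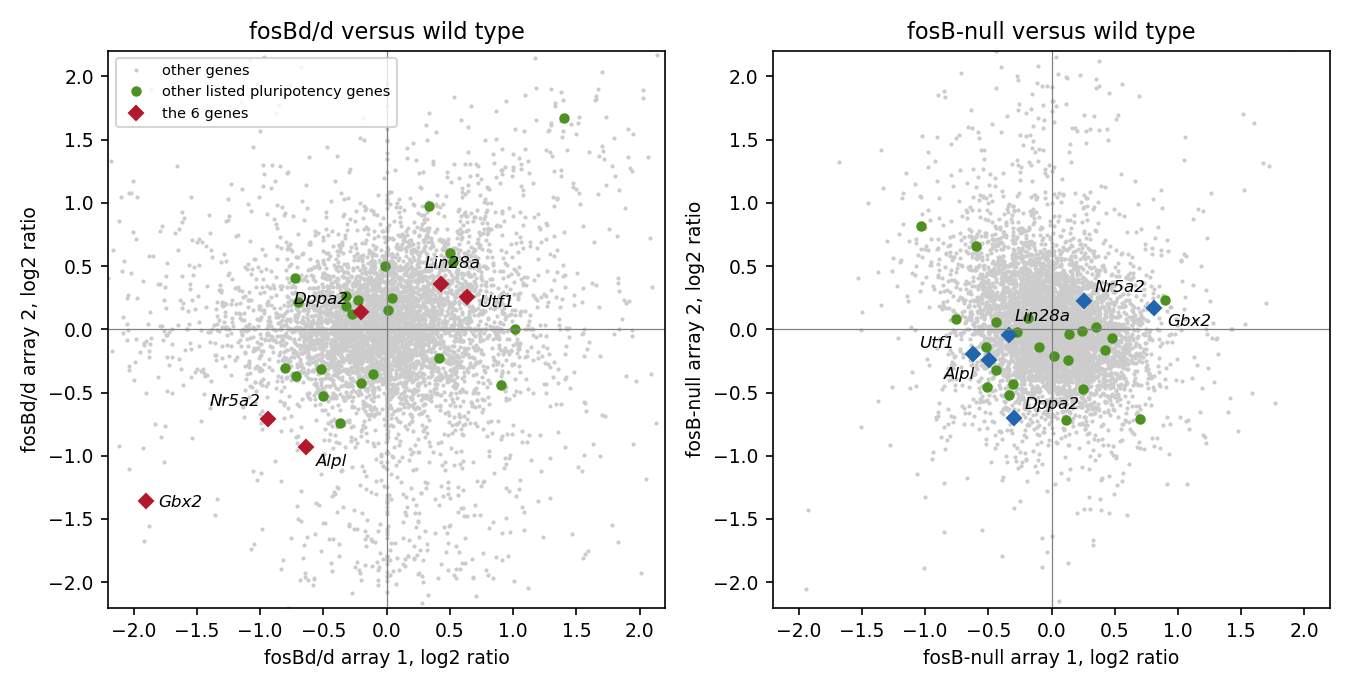
Log2 ratio on array 1 (horizontal) against array 2 (vertical) for each mutant, with the 6 genes as labelled diamonds, other listed pluripotency genes in green and all other genes in grey. Gbx2, Nr5a2 and Alpl lie in the lower left of the fosBd/d panel, and 134 fosBd/d and 8 fosB-null genes lie outside the axes.

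The mutants were compared through the wild-type RNA on every array. As deposited, fosBd/d lay below fosB-null for Gbx2 (-2.12 ± 0.42 on the log2 scale, SE), Nr5a2 (-1.07 ± 0.12) and Alpl (-0.42 ± 0.19). It lay above fosB-null for Utf1 (0.85 ± 0.28), Lin28a (0.59 ± 0.15) and Dppa2 (0.46 ± 0.26). These are differences between the mutants only if all arrays are mutant over wild type. Each SE comes from dye-swapped arrays and holds any dye part. If Cy5 over Cy3 is meant, the fosB-null sign has to be turned. The differences then became -1.14 for Gbx2, -0.58 for Nr5a2, -1.15 for Alpl, 0.04 for Utf1, 0.20 for Lin28a and -0.53 for Dppa2. Gbx2, Nr5a2 and Alpl were thus lower in fosBd/d than in fosB-null under either sign of fosB-null. As deposited, the arrays of the mutants lay apart for each of the 6 genes, and with the sign turned for all but Utf1. The share of all genes with arrays apart was not computed, and these ratios were used to choose the genes, so nothing is read from this. As deposited, 4 of the 6 genes (Gbx2, Nr5a2, Utf1 and Lin28a) had both fosBd/d arrays on one side of 0 and both fosB-null arrays on the other, as did 14.7% of all 6025 genes. The genes were chosen by these ratios, so nothing is read from that count. Utf1 had overlapping arrays with the sign turned, and Dppa2 changed side. If fosBd/d itself were turned, as the colour words would have it, each difference with the fosB-null sign turned would be reversed. Over all probes, 0 of 9480 passed limma for this difference (0%), as deposited and with the sign turned. An unadjusted p under 0.05 was found for 1320 (13.9%) and 865 (9.12%). The dye term of that fit has the turning undone, which does not go with the as-deposited difference. With the dye term of mutant over wild type on all arrays, limma gave 153 as deposited at an unadjusted p under 0.05, and 0 passed. Leaving out any 1 array gave 149 to 827 as deposited and 156 to 730 with the sign turned.

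**Figure D3:**
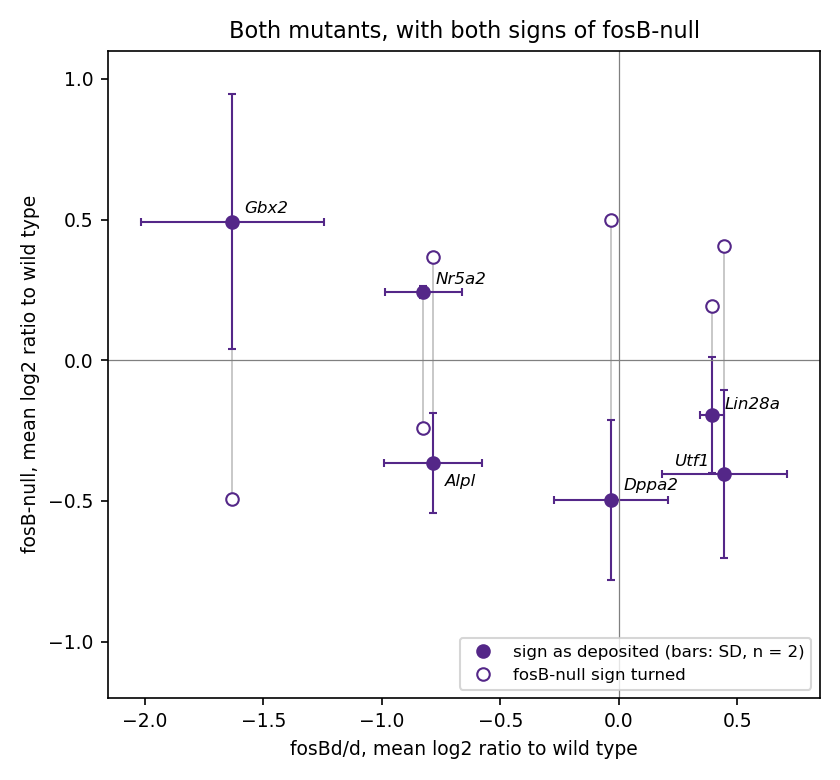
Mean log2 ratio to wild type in fosBd/d (horizontal) and fosB-null (vertical) for the 6 genes, as deposited (filled, bars are the SD of 2 arrays) and with the fosB-null sign turned (open). Gbx2 keeps the lowest fosBd/d value, and its fosB-null mean is 0.49 or -0.49.

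A dye swap also gives, for each probe, the part of its signal that follows the dye and not the genotype. This part played no role in choosing the genes. With the turning undone, the Cy5-over-Cy3 part in fosBd/d and fosB-null was 0.27 and 0.32 for Gbx2, 0.17 and 0.20 for Dppa2, -0.19 and -0.21 for Utf1 and -0.15 and -0.13 for Alpl. Nr5a2 had 0.12 and 0.02, and Lin28a had -0.04 and -0.15. Both mutants had the same sign in 6 of 6 genes, and in 71.2% of all 9480 probes, where the correlation of the dye parts across probes was 0.61. If the fosB-null arrays had been left with the opposite sign, that correlation would be -0.61.

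**Figure D4:**
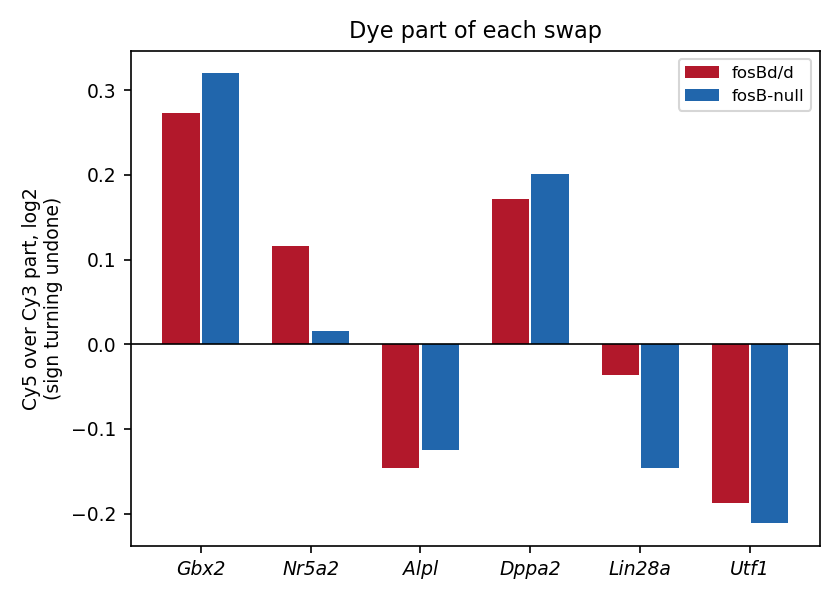
Part of the log2 ratio that follows Cy5 over Cy3 (bars from 0, mean of the 2 arrays of a swap after undoing the apparent turning) for each gene in fosBd/d and fosB-null. This part also holds any other difference between the 2 arrays. The bars of both mutants point the same way for each of the 6 genes.

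The wider pluripotency network was read from a list of core transcription factors and regulators and a list of ES cell markers. Of 74 listed genes, the 6 included, 29 were measured. In fosBd/d, 9 were positive and 10 negative on both arrays, with a median of -0.03, against -0.02 over all 6025 genes, of which 25% were positive and 24.2% negative on both. In fosB-null, 4 were positive and 11 negative, with a median of -0.11 against 0.00 over all genes, of which 19.5% were positive and 21.9% negative. Leaving the 6 genes out, 7 of 23 were positive and 7 negative in fosBd/d, and 2 were positive and 7 negative in fosB-null.

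Among the 11 core regulators measured, Zfp281, a zinc finger factor of the Nanog network, and Zfp42 (Rex1), a classical naive marker, were the most negative in fosBd/d, at -0.56 ± 0.35 and -0.54 ± 0.25 (SD, n = 2). Zfp42 stood at -0.72 and -0.37 on the fosBd/d arrays, beside 0.02 and -0.21 in fosB-null. Myc, a growth-promoting factor downstream of LIF, was positive in fosBd/d at 0.66 ± 0.45, and Hcfc1, a chromatin cofactor, stood at 0.08 ± 0.10. In fosB-null, Hcfc1 (-0.43 ± 0.13) and Tfcp2l1 (-0.38 ± 0.08), a naive-state factor, were the most negative, and Mycn, a Myc relative, was the only core regulator positive on both arrays (0.56 ± 0.47). The 11 had a median of -0.03 in fosBd/d and -0.10 in fosB-null.

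Of 12 ES cell markers measured, 5 were positive and 4 negative on both arrays in fosBd/d. Dnmt3b, a de novo DNA methyltransferase that is higher in the epiblast than in naive cells, stood at 1.41 and 1.67 in fosBd/d, a mean of 1.54 ± 0.19 (SD, n = 2) or 2.90-fold. It was -0.10 and -0.14 in fosB-null. Cdh1 (E-cadherin), which joins ES cells to each other, stood at 0.50 and 0.61 in fosBd/d and at -0.51 and -0.46 in fosB-null. On the negative side of fosBd/d were Zfp57 (-0.55 ± 0.27), which guards imprints, and Tcl1 (-0.52 ± 0.02), an AKT coactivator. In fosB-null, Dppa3 (Stella) was at -0.37 ± 0.09 after Cdh1 at -0.48 ± 0.04. Fut4, a fucosyltransferase gene, was positive there at 0.18 ± 0.23, an SD above its mean.

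Upstream of Gbx2, LIF and STAT3 pathway genes had a median of 0.08 in fosBd/d and 0.11 in fosB-null over 11 measured. In fosBd/d, 4 were positive and 2 negative on both arrays. Stat3 itself stood at 0.46 and 0.42 in fosBd/d and at 0.08 and 0.10 in fosB-null. Ptpn11, the phosphatase SHP2, was at 0.60 ± 0.39 in fosBd/d, while the kinases Pim1 and Tyk2 were at -0.85 ± 0.61 and -0.18 ± 0.24. In fosB-null, 4 were positive and 0 negative, led by Socs3 (0.37 ± 0.36), the STAT3-induced feedback inhibitor, and Il6st (0.30 ± 0.13), the shared receptor gp130.

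Wnt and GSK3 genes had a median of 0.21 in fosBd/d and -0.07 in fosB-null over 10 measured, with 4 positive and 1 negative in fosBd/d and 1 positive and 4 negative in fosB-null. Dkk1, a secreted Wnt inhibitor, was the most positive in both as deposited, at 0.60 ± 0.54 in fosBd/d and 0.76 ± 0.65 in fosB-null. With the fosB-null sign turned, its means would lie on opposite sides of 0. Axin2, a Wnt-induced inhibitor, stood at 0.32 ± 0.18 in fosBd/d and -0.36 ± 0.51 in fosB-null. Apc, which targets β-catenin for destruction, was at -0.70 ± 0.80 in fosBd/d, and Wnt5a was at -0.35 ± 0.31 in fosB-null. These SDs are close to or above the means for Dkk1, Apc and, in fosB-null, Axin2 and Wnt5a, so their sizes are uncertain. Each SD comes from 1 dye swap, so a dye part cannot be told apart in it from other differences between the arrays.

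Around Lin28a, 12 genes of microRNA processing and of let-7 or Lin28 targets were measured, with a median of -0.06 in fosBd/d and 0.13 in fosB-null. In fosBd/d, 4 were positive and 2 negative on both arrays, and in fosB-null 2 were positive and 2 negative. The cyclin Ccnd2 stood at 2.28 and 1.61 in fosBd/d, a mean of 1.95 ± 0.48 (SD, n = 2) or 3.85-fold, beside -0.17 and -0.43 in fosB-null. The growth factor Igf2 was at 1.17 ± 0.36 in fosBd/d, while the cyclin Ccnd1 and its kinase Cdk6 were at -0.45 ± 0.01 and -0.33 ± 0.27. The 2 probes of Cdk6 gave -0.23 and -0.43. In fosB-null, Drosha, the nuclear microRNA nuclease, was at -0.36 ± 0.48, Ccnd2 at -0.30 ± 0.18, Igf1r at 0.22 ± 0.23 and Ccnd1 at 0.14 ± 0.06.

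**Figure D5:**
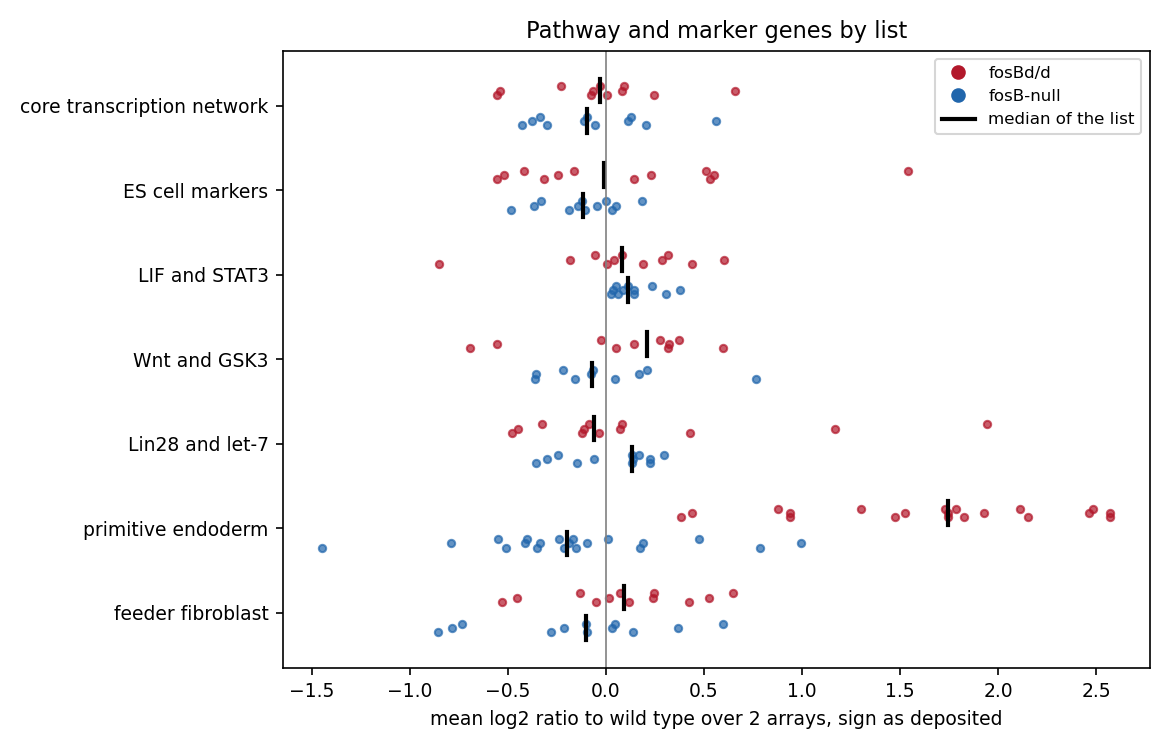
Mean log2 ratio to wild type over 2 arrays (horizontal axis, sign as deposited) for each measured gene of 7 lists, fosBd/d above fosB-null in each row, with black bars at the list medians. In fosBd/d the primitive endoderm genes have a median of 1.75, while the 5 pathway and marker lists of pluripotency have medians from -0.06 to 0.21.

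Markers of other cell types were read beside these genes, from lists written with the endoderm shift in fosBd/d already known. Of 20 primitive endoderm markers measured, 17 were positive and 0 negative on both fosBd/d arrays, with a median of 1.75 and gene means from 0.38 to 2.57. In fosB-null 3 were positive and 11 negative, with a median of -0.20. Of 12 feeder fibroblast markers, 5 were positive and 3 negative in fosBd/d (median 0.09), and 0 were positive and 4 negative in fosB-null (median -0.10). Fewer cells of a type and less RNA per cell cannot be told apart in bulk RNA, and the part of endoderm-like cells in the ratios of Gbx2, Nr5a2 and Alpl was not tested. Ratios show no levels, so whether defining endoderm markers are at 0 in any genotype cannot be read.

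The genes most like each of the 6 were taken as the 3 single-gene probes at the smallest Euclidean distance over the 4 log2 ratios. Gbx2 stood most alone, with Trps1 at a distance of 0.63, Elavl2 at 0.70 and Slc27a2 at 0.76, and 0 probes within 0.5. The Trps1 ratios were -1.54 and -0.86 in fosBd/d and 0.70 and 0.14 in fosB-null. Alpl had 5 probes within 0.5, the nearest being Cd52 (0.37), Ablim1 (0.41) and the ES cell marker Zfp57 (0.45). Nr5a2 had 49, led by Bcat1 (0.16), Dido1 (0.18) and Lat (0.21). Utf1 had 192, led by Gnaq (0.17), Crip1 (0.20) and Ncdn (0.20), and Dppa2 had 205, led by Blm (0.19), Itgal (0.19) and Sntg2 (0.22). Lin28a had 521, led by Abhd12 (0.05), Prrc2c (0.09) and Lman1 (0.09). Elavl2 has 3 probes, and Cd52 and Prrc2c have 2 each, of which only the nearest is given. Distances rest on 4 arrays that share dyes and wild-type RNA, and a gene near 0 has many neighbours.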

How the data were processed

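For each array the authors deposited a single column of values, read here as log10 ratios of the dyes. Agilent Feature Extraction, which writes log10 ratios, is the only tool that the submitters' processing notes list. No source used here states its version, background correction, dye normalization or filters, and signal intensities were not used here. The log base is known only from how that software defines its ratio. Values were multiplied by 3.32 to give log2 ratios. Medians were 0.00 on each array, with SDs from 0.44 to 0.82. The number of arrays limits the precision.

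Probes were named from a 2007 platform annotation, with symbols updated through RefSeq by gene identifier (6496 of 6566 matched). Of 9480 probes, 392 had several genes and 2522 none listed. Probes of a gene were averaged. All probes were fitted in limma 3.58.1 (R 4.3.3) with 1 coefficient for each mutant plus a probe-wise dye term (1 residual degree of freedom), two-sided, with Benjamini-Hochberg adjustment at 0.05. The step was tested on simulated data. Members and lists were chosen with earlier results of these data known. From each pathway list, the 2 most positive and 2 most negative genes of 1 sign on both arrays are named per mutant. Alternatives were no dye term, arrays on one scale, another centring, a replicate block, the first probe of a gene, natural log values and leaving out each array. The labels give no replicate numbers. Arrays were numbered in accession order, so a shared number marks only a shared dye orientation. The replicate block therefore acts as a dye term for all arrays read as mutant over wild type.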

Additional observations from a re-analysis of the deposited data

Results flagged for a closer look

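Some genes had every fosBd/d array on one side of 0 and every fosB-null array on the other, as deposited. If Cy5 over Cy3 is meant, such genes differ from wild type in the same direction in both mutants. This held for 22 of the 51 genes checked, which were the 6 genes, the genes named from the pathway lists and the nearest probes, and for 14.7% of all 6025 genes. The nearest probes were chosen for their likeness to the 6 genes, so they follow the same signs by construction. The 6 genes were chosen by these ratios, and the pathway genes for having 1 sign on both arrays of a mutant. The 22 of 51 therefore cannot be weighed against the 14.7%, and nothing is read from it. The differences between the mutants were not tested gene by gene, and 0 probes passed limma over the whole array. As deposited, 1320 had an unadjusted p under 0.05, or 153 with the dye term that mutant over wild type on all arrays would give. Among the 6 genes, the fosBd/d minus fosB-null difference as deposited was -2.12 for Gbx2, -1.07 for Nr5a2, 0.85 for Utf1 and 0.59 for Lin28a (log2). With the fosB-null sign turned, it was -1.14 for Gbx2, -0.58 for Nr5a2, 0.04 for Utf1 and 0.20 for Lin28a. As deposited, in the pathway lists it was 2.25 for Ccnd2, 1.66 for Dnmt3b and 1.04 for Cdh1. Axin2 stood at 0.68, Ccnd1 at -0.59 and Hcfc1 at 0.51. With the fosB-null sign turned, these became 1.64 for Ccnd2, 1.42 for Dnmt3b, 0.07 for Cdh1, -0.05 for Axin2, -0.31 for Ccnd1 and -0.34 for Hcfc1. Values of the nearest probes are of 1 probe each, also for Elavl2 and Prrc2c, which have more, while the 14.7% is over gene means. For the nearest probes, the difference as deposited is followed in brackets by that with the fosB-null sign turned. Of those nearest to Gbx2, Slc27a2 differed by -2.77 (-0.82), Elavl2 by -2.02 (-0.60) and Trps1 by -1.62 (-0.78). Those nearest to Nr5a2 were at -1.13 (-0.54) for Dido1, -1.04 (-0.74) for Bcat1 and -1.03 (-0.53) for Lat. Those nearest to Utf1 were at 0.72 (0.12) for Gnaq, 0.68 (0.15) for Ncdn and 0.65 (-0.01) for Crip1. Those nearest to Lin28a were at 0.62 (0.14) for Prrc2c, 0.59 (0.17) for Abhd12 and 0.57 (0.18) for Lman1. Groups of 2 arrays are too small to look for a single outlying array.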

How the results depend on the processing

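The fosBd/d minus fosB-null difference of Dppa2 reversed to -0.53 with the fosB-null sign turned, against 0.46 as deposited. The 12 mean ratios of the 6 genes kept their sign with arrays on one scale, another centring, the first probe of a gene and natural log values, and also without either array, except Dppa2 in fosBd/d without replicate 1 (0.14). Read as natural logs, ratios would shrink, with Gbx2 at -0.71 in fosBd/d. Counts of the 29 listed pluripotency genes moved when 1 array was left out, since a sign on 1 array is easier to meet. Positive genes were 17 without fosBd/d replicate 1 and 11 without replicate 2, against 9, and negative genes 12 and 18, against 10. In fosB-null, positive genes were 9 without replicate 1 and 13 without replicate 2, against 4, and negative genes 20 and 16, against 11. Calls in limma were 0 for each comparison under each alternative run, the replicate block included, where 270 probes in fosBd/d and 47 in fosB-null had an unadjusted p under 0.05. Without the dye term these counts were 709 and 179. The replicate block is the dye term that mutant over wild type on all arrays would give. The 270 and 47 thus belong to the other reading of the fosB-null sign, not to a separate processing choice. Leaving out an array also drops the dye term. The fosBd/d count of 1503 was then 813 and 973 without fosBd/d replicates 1 and 2, and 351 without either fosB-null array. The fosB-null count of 578 was 176 without either fosBd/d array, and 179 and 46 without fosB-null replicates 1 and 2. The difference count of 1320 was 692 and 827 without fosBd/d replicates 1 and 2, and 260 and 149 without fosB-null replicates 1 and 2. With the fosB-null sign turned, 865 became 614 and 730, and 201 and 156. With 1 residual degree of freedom, a count of 0 says nothing about stability. Each of the 6 genes rests on 1 probe.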

Other observations

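Markers of the embryonic germ layers and of trophoblast, few of which were measured, did not move as a block in fosBd/d. Neural and ectoderm genes had a median of -0.31 in fosBd/d and -0.20 in fosB-null over 5 genes, and in fosB-null 4 of the 5 were negative on both arrays. Mesoderm genes had medians of -0.21 and 0.24 over 6 genes, and trophoblast genes -0.23 and 0.06 over 6. Within these lists, and chosen after their values were seen, the keratin Krt8 stood at 1.74 in fosBd/d and -0.03 in fosB-null. The placental gene Plac1 stood at 1.34 in fosBd/d and 1.06 in fosB-null, positive on both arrays of each mutant as deposited. With the fosB-null sign turned, the mutants would lie on opposite sides of 0 for Plac1. The bone morphogenetic protein gene Bmp4 stood at -0.15 in fosBd/d and -0.86 in fosB-null.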
